A study of Mus musculus with 4 samples.

Results

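The 9 genes described here encode the mouse components C1, C2 and C4 of the classical complement pathway: C1qa, C1qb, C1qc, C1ra, C1s1, C1s2, C2, C4a and C4b. They were taken by name from the 32285 genes measured, a rule that uses no measured value, and all 9 were present in the count matrices. Single-cell suspensions of lung and synovium came from TNF transgenic mice, which carry the human TNF gene on a C57BL/6 background (TNF+), and from their littermates without it (TNF-), females aged 4 months. Cells of several mice were combined per genotype (3 to 5 mice for lung, 5 to 10 for synovium), and live cells were sorted with a viability dye, with no gate on cell type. The data therefore hold 4 droplet 3′ libraries, 1 per group, with no replicates, and no p-value can be given. Every interval below is an exact 95% interval that covers counting error only and not the spread between mice.

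The classical pathway starts when C1q, a recognition molecule built from the A, B and C chains, binds antibody complexes, pentraxins or dying cells. The serine proteases C1r and C1s ride on C1q, C1r activates C1s, and C1s cleaves C4 and C2 to form the C3 convertase. Liver makes much of the plasma pool of several components, whereas C1q is known as a product of macrophages and dendritic cells.

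Values are counts of unique molecular identifiers (UMIs), each standing for 1 captured RNA molecule, and levels are UMIs per 1000000 UMIs of a cell class (CPM). Each molecule is counted once near its 3′ end, so counts are not scaled by gene length. Of 8555 TNF- and 11243 TNF+ lung barcodes, 6998 and 9174 were kept, and of 6899 TNF- and 4246 TNF+ synovial barcodes, 6200 and 3152, with medians of 7137 to 12492 UMIs per cell. Any pair of libraries shared 5 to 21 cell barcodes. Mononuclear phagocytes are the clusters named macrophage, monocyte or dendritic, and mesenchyme is the clusters named fibroblast or mural (pericytes and smooth muscle). The 25 macrophage and monocyte markers summed to between 22869 and 29197 CPM in macrophages and monocytes and to between 1368 and 5386 CPM in mesenchyme. The 22 fibroblast markers summed to between 94.3 and 229 CPM in macrophages and monocytes and to between 6884 and 33386 CPM in mesenchyme.

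C1q and its proteases lay in different lineages in every library. The 3 C1q genes together stood at 800 to 1561 CPM in mononuclear phagocytes, and C1ra, C1s1 and C1s2 together stood at 384 to 833 CPM in mesenchyme. In phagocytes the proteases stood at 5.38 to 10.8 CPM. C1q in mesenchyme stood at 2.96 to 4.92 CPM in 3 of the 4 libraries and at 410 CPM in the TNF+ lung, a library in which C1q reached every class.

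For C1q, phagocytes held 1173 CPM against 4.92 CPM in mesenchyme in the TNF- lung, a log2 ratio of 7.90 (7.27 to 8.61). The TNF- synovium gave 800 against 2.96 CPM, a log2 ratio of 8.08 (7.85 to 8.32). The TNF+ synovium gave 1177 against 4.49 CPM, a log2 ratio of 8.04 (7.52 to 8.60). Across these 3 libraries C1q was thus 238-fold, 270-fold and 262-fold higher in phagocytes. In the TNF+ lung the values were 1561 and 410 CPM, a log2 ratio of 1.93 (1.74 to 2.12).

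For the C1r and C1s genes the direction was the opposite in all 4 libraries. Phagocytes held 5.90 CPM and mesenchyme 384 CPM in the TNF- lung, a log2 ratio of -6.02 (-6.47 to -5.61). The TNF+ lung gave 5.38 and 623 CPM, with a log2 ratio of -6.86 (-7.10 to -6.62). The TNF- synovium gave 10.8 and 655 CPM, with a log2 ratio of -5.92 (-6.21 to -5.65). The TNF+ synovium gave 6.19 and 833 CPM, with a log2 ratio of -7.07 (-7.37 to -6.79).

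Read gene by gene against a size of 2-fold, 7 members had the 20 UMIs needed for the comparison of phagocytes with mesenchyme in the TNF- lung. C1qa, C1qb and C1qc were higher in phagocytes there, beside 21.9% of all genes tested, and C1ra, C1s1, C2 and C4b were higher in mesenchyme, beside 28% of all genes. The same 3 and 4 genes fell on the same sides in the TNF+ lung, where the backgrounds were 12.7% and 37.9%. They did so again among 8 members in the TNF- synovium, where C4a lay within 2-fold and the backgrounds were 15.7% and 37.9%. In the TNF+ synovium C1s2 joined the mesenchymal side, making 5 of 8 members, beside backgrounds of 18.3% for phagocytes and 29.2% for mesenchyme.

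**Figure D1:**
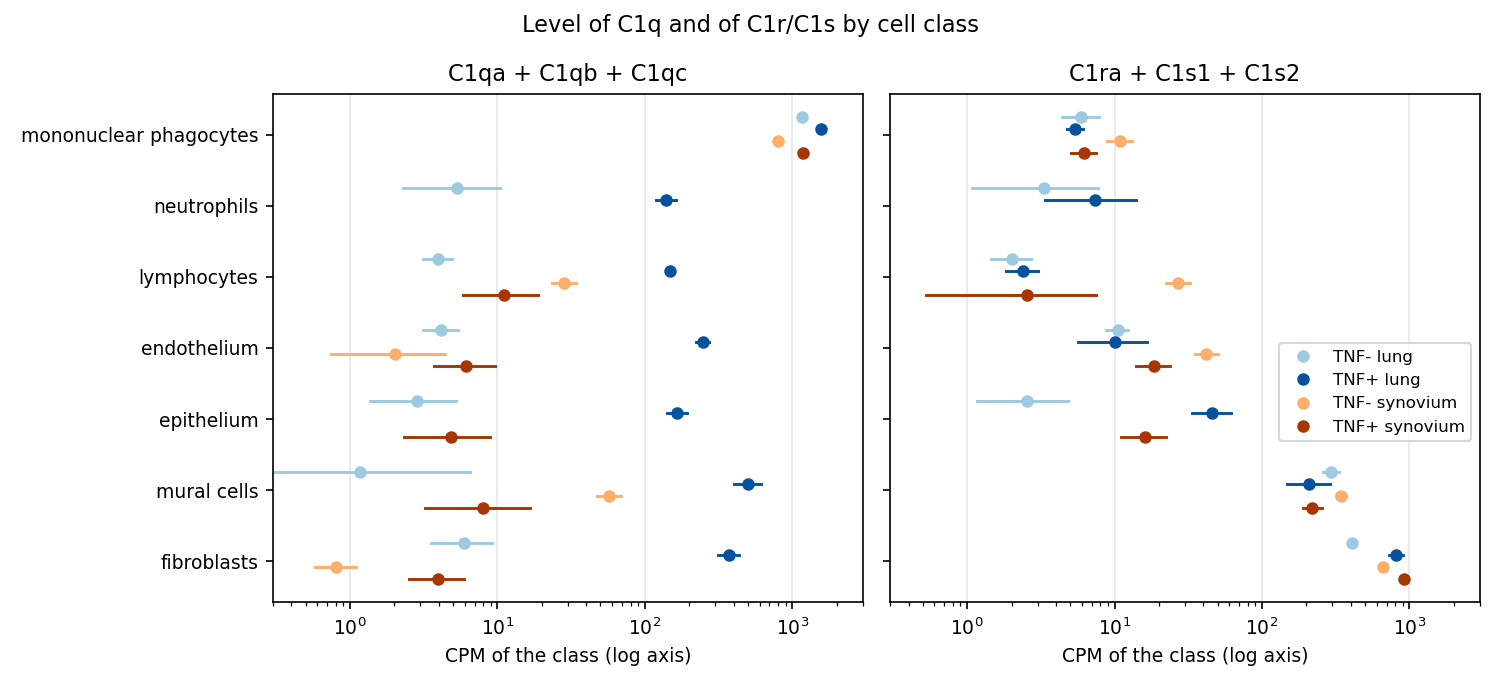
Level of the 3 C1q genes (left) and of the 3 C1r and C1s genes (right) in 7 cell classes, in CPM on a log axis; points are libraries and lines are 95% counting intervals, drawn for classes of at least 50 cells with a UMI. C1q is highest in mononuclear phagocytes in all 4 libraries, the TNF+ lung holds 139 CPM or more in every other class drawn, and C1r and C1s are highest in fibroblasts.

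Shares of UMIs, here and below, are of the kept cells of a library. Where barcodes left out are named, their shares are of all barcodes. Phagocytes held 98.1% (TNF-) and 92.8% (TNF+) of lung C1q, and 95.8% (TNF-) and 99.5% (TNF+) of synovial C1q. Mesenchyme held 96.5% of TNF- and 92.0% of TNF+ synovial C1r and C1s UMIs. In lung the mesenchymal share was 85.9% in the TNF- library and 47.9% in the TNF+ library. In the latter, mesenchyme was 2.31% of kept cells with a median of 790 UMIs per cell, and phagocytes, at 5.38 CPM but 51.3% of cells, held 33.0%.

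**Figure D2:**
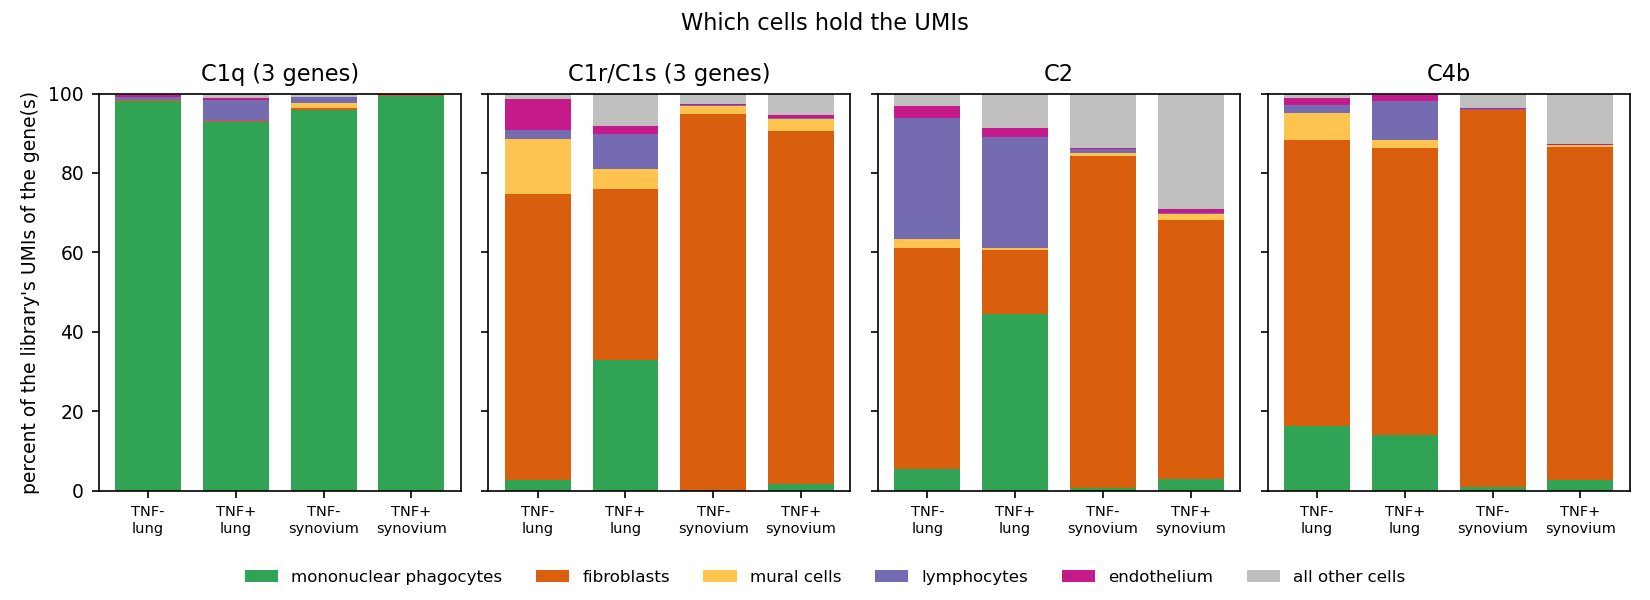
Percent of the UMIs of C1q, of C1r and C1s, of C2 and of C4b in each library's kept cells that each cell class held, as bars stacked to 100. Phagocytes hold 92.8% to 99.5% of C1q; fibroblasts hold most C1r, C1s, C2 and C4b UMIs in both synovial libraries.

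Among synovial fibroblasts, 3127 of 3288 TNF- cells (95.1%) and 386 of 456 TNF+ cells (84.6%) held a UMI of C1ra, C1s1 or C1s2. With every cell thinned to 1000 UMIs, the shares with a C1r or C1s UMI were 45.6% (43.9 to 47.3) and 50.2% (45.5 to 55.0) of 3279 and 440 synovial fibroblasts. A UMI of any C1q gene was found in 0.0305% (TNF-) and 0.455% (TNF+) of these thinned fibroblasts, and in 1.19% and 4.39% before thinning. In synovial T cells any C1q gene was found in 1 of 273 TNF- cells and 5 of 143 TNF+ cells after thinning. The thinned share with a C1r or C1s UMI was 1.83% in TNF- and 0.699% in TNF+ synovial T cells, which should lack these genes and had medians of 11099.5 and 6190 UMIs before thinning (12.04% and 1.36% of them then held such a UMI).

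The genes lie in 3 groups on the genome (build GRCm38). C1qa, C1qc and C1qb sit side by side on the minus strand at chr4:136895917-136898803, chr4:136889804-136893065 and chr4:136880129-136886187, with gaps of 2851 and 3616 bases. C1ra (chr6:124512405-124523443, plus strand) and C1s1 (chr6:124530345-124542359, minus strand) lie 6901 bases apart, and C1s2, a copy of C1s1, lies at chr6:124624625-124636085. C2 (chr17:34862604-34898265), C4a (chr17:34809092-34823464) and C4b (chr17:34728380-34743882) lie on the minus strand of the major histocompatibility region. C4a is annotated as a processed transcript, and the other 8 members as protein coding.

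Promoter windows (250 bases before the annotated start to 50 after it, RefSeq, GRCm38.p6) were matched for 5 members: C1qb, C1qc, C1ra, C1s1 and C1s2. The windows of 2 phagocyte genes and 2 mesenchymal genes are given below 5′ to 3′ on the gene's strand, to set the sequences of the 2 sides next to each other. Capitals mark GAGGAA, a core bound by the myeloid factor PU.1, or its reverse complement.
C1qb (chr4:136886151-136886450, minus strand): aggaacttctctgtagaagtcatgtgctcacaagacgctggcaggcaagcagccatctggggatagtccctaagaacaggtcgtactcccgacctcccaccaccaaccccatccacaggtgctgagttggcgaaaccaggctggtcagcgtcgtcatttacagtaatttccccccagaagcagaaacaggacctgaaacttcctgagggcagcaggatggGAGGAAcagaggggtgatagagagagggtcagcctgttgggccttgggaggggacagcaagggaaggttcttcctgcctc
C1qc (chr4:136892865-136893164, minus strand): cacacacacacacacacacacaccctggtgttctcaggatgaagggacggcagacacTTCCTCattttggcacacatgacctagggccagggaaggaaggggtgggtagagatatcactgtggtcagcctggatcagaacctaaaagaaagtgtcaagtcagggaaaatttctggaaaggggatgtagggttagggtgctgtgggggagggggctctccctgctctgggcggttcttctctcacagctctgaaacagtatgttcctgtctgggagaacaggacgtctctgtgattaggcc
C1ra (chr6:124512371-124512670, plus strand): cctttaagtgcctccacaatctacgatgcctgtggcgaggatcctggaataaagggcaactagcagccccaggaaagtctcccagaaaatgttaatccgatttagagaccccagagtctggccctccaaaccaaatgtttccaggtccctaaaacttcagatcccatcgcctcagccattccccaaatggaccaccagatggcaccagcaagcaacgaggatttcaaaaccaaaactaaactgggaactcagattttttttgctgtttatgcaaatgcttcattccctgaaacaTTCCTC
C1s1 (chr6:124542272-124542571, minus strand): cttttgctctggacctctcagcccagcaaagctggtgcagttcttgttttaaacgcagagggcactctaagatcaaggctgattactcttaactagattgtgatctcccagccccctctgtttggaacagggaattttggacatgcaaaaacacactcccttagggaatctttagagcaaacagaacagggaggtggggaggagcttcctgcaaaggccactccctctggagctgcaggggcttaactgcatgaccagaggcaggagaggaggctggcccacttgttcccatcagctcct

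GAGGAA, searched on both strands, was found in C1qb at base -30, in C1qc at base -193 and in C1ra at base 45 counted from the start, and in neither of the windows held for C1s1 nor that of C1s2. Of all 32851 promoter windows, 28.3% held it, so a match in genes of both sides is a description of the letters. STAT-type TTCNNNGAA and C/EBP-type TTGCNNAA, held by 8.30% and 10.8% of all windows, were found in C1ra. TTGCNNAA was also found in 1 of the 2 windows of C1s1, not the one printed. The MAF half-site TGCTGAC, held by 4.67% of all windows, was found in C1s2, and an NF-kB type motif, held by 1.47%, was found in none of these windows.

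Reading the 3 C1q chains separately showed similar proportions within each tissue. C1qa encodes the A chain, C1qb the B chain and C1qc the C chain, and mature C1q needs all of them. In lung phagocytes their UMIs divided as 40.3%, 35.9% and 23.9% in the TNF- library and 43.8%, 33.5% and 22.6% in the TNF+ library. In synovial phagocytes they divided as 36.2%, 41.9% and 21.9% in the TNF- library and 36.5%, 41.1% and 22.4% in the TNF+ library. The C1qc chain was thus the least counted of the 3 in each library, while the order of C1qa and C1qb differed between the tissues.

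Over whole libraries, meaning all kept cells of a library, C1q was higher in TNF+ tissue in both organs. Summed synovial C1q was 108 CPM (105 to 110) without and 590 CPM (582 to 598) with the transgene, a log2 ratio of 2.46 (2.42 to 2.49). In lung it was 185 CPM (181 to 188) and 912 CPM (905 to 918), a log2 ratio of 2.31 (2.27 to 2.34). Phagocytes made up 9.56% (TNF-) and 37.8% (TNF+) of kept synovial cells, and 10.3% (TNF-) and 51.3% (TNF+) of kept lung cells. In sums over a library, more cells of a type and more RNA per cell cannot be told apart, so the value within the class is given next.

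Per phagocyte UMI, the difference was smaller. In synovial phagocytes, C1qa stood at 289 (TNF-) and 430 CPM (TNF+), a log2 ratio of 0.57 (0.51 to 0.63). C1qb stood at 335 and 484 CPM (log2 0.53, 0.47 to 0.59), and C1qc at 175 and 264 CPM (log2 0.59, 0.51 to 0.67). The 3 genes together gave 0.56 (0.52 to 0.60). That value was 0.03 when each cell was weighted equally and 0.95 without any filter on cells. Most C1q UMIs lay in the Retnla Cd209a Mgl2 cluster in TNF- and in the Trem2 Cxcl3 Cxcl2 cluster in TNF+.

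In lung phagocytes C1qa stood at 473 CPM (TNF-) and 685 CPM (TNF+), a log2 ratio of 0.53 (0.49 to 0.58). C1qb stood at 420 and 523 CPM (0.32, 0.26 to 0.37), and C1qc at 280 and 353 CPM (0.34, 0.27 to 0.40). Together the 3 genes gave 0.41 (0.38 to 0.44). With the C1q level of each library's lymphocytes subtracted, a setting chosen after seeing the data, the value was 0.27. The upper limit of 5000 genes per cell bore on this comparison: barcodes above it held 66.0% of the TNF+ lung's C1q UMIs and 31.5% of the TNF- lung's, and without any filter the ratio was 1.91 (1.89 to 1.94).

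By the 2-fold size, 4 of 9 members were higher in the whole TNF+ synovium (C1qa, C1qb, C1qc and C1s2, beside 11.8% of all genes) and 3 were lower (C1ra, C1s1 and C4b, beside 21.9%). In the whole TNF+ lung 3 of 8 tested members were higher, the C1q genes, beside 5.79% of all genes, and 4 were lower (C1ra, C1s1, C2 and C4b), beside 25.5%. Within synovial phagocytes none of 7 members was 2-fold higher, beside 9.63% of all genes, and C1s1 and C4b were lower, beside 19.5%. C1s1 stood at 7.13 CPM (TNF-) and 2.73 CPM (TNF+) in these phagocytes. It stood at 17.6 CPM (58 UMIs, in 26 of 274 cells) in TNF- synovial T cells, with no UMI in TNF+ synovial T cells (upper bound 3.83 CPM). The summed level of 22 fibroblast markers in those T cells was 886 CPM (TNF-) and 165 CPM (TNF+), and its part in the C1s1 difference was not tested. Within lung phagocytes C1s1 was higher on 6 and 81 UMIs, beside 4.66% of all genes, and C4b was lower, beside 14.6%.

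Within synovial mesenchyme C1s2 and C2 were 2-fold higher of 9 members, beside 9.35% of all genes, and none was lower, beside 21.6%. Within lung mesenchyme the 3 C1q genes were higher of 7 members, beside 9.19% of all genes, in a TNF+ library whose lymphocytes held 148 CPM of C1q, and none was lower, beside 9%. The median log2 ratio over all genes tested was -0.17 in the whole synovium and -0.32 in the whole lung. It was -0.13 and -0.12 within phagocytes and -0.27 and -0.02 within mesenchyme, for synovium and lung.

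**Figure D3:**
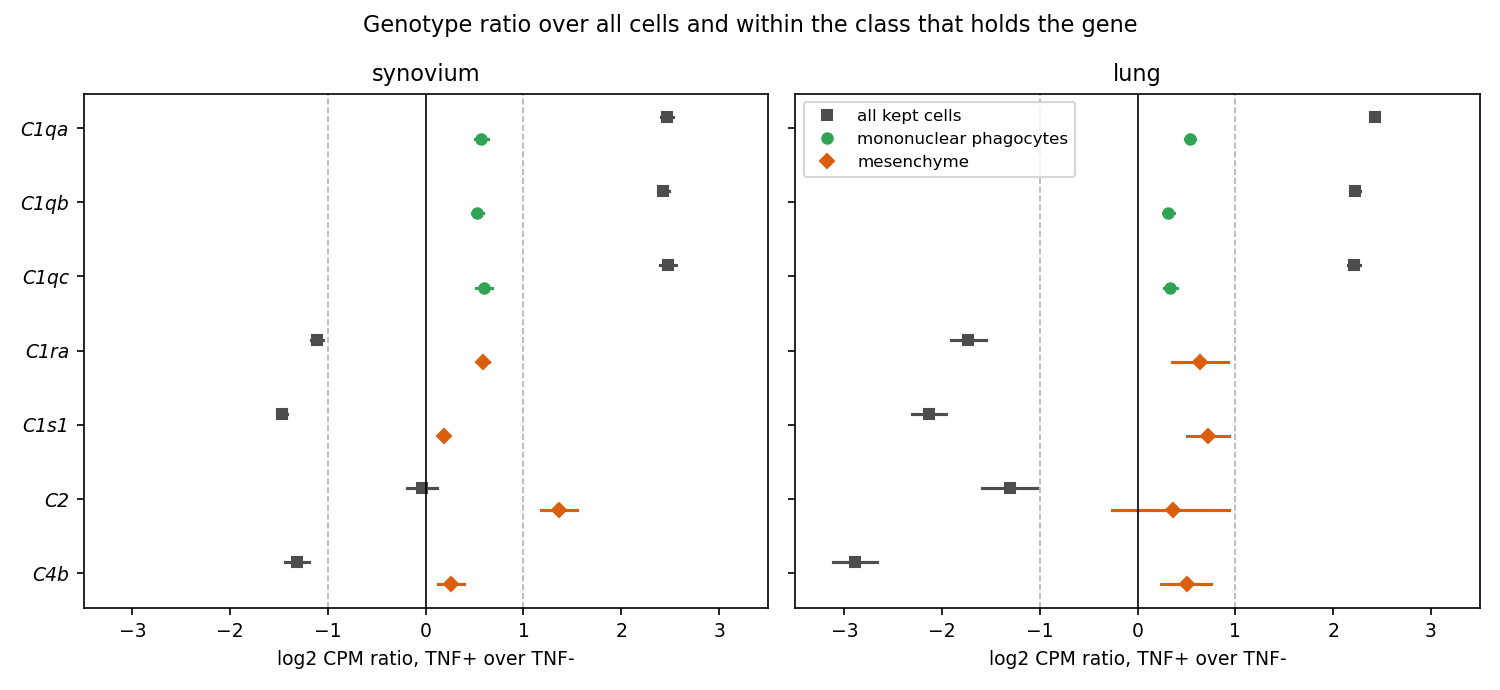
Log2 CPM ratio of TNF+ over TNF- for 7 members over all kept cells (squares) and within the class that holds the gene, phagocytes for C1q (circles) and mesenchyme for the others (diamonds), with 95% counting intervals; dashed lines mark 2-fold. C1q is over 4-fold higher in whole libraries and under 2-fold higher within phagocytes; C1ra, C1s1 and C4b are 2-fold lower or more in whole libraries and above 0 within mesenchyme.

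C1q was carried by a minority of phagocytes. In lung a cluster led by St18, Cxcl13 and Ms4a7 held 85.8% of the C1q UMIs of kept TNF- cells, in 64 cells. It held 65.9% of those of kept TNF+ cells, in 238 cells. Of these cells, 63 of 64 and 235 of 238 had a C1q UMI, with a median of 143.5 UMIs per TNF- cell and 215.5 per TNF+ cell. The cluster stood at 10741 CPM and 15497 CPM, a log2 ratio of 0.53 (0.50 to 0.56).

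Other lung phagocytes held less. The cluster led by F13a1, AI839979 and Msr1 went from 483 CPM (129 cells) to 1661 CPM (459 cells), a log2 ratio of 1.78 (1.68 to 1.88). In it, 3 of the TNF- cells held 55.0% of the TNF- UMIs. In TNF+, 20 of the 459 cells held 50% of the UMIs, and the median was 2 per cell. The cluster led by Spp1, Marco and Krt79 stood at 1052 CPM in 50 TNF- cells, all of it in 3 of them, and at 3085 CPM in 951 TNF+ cells. Of the latter, 45 held 50% of the UMIs, with a median of 1 per cell over all 951. Dendritic cells led by Ccl17, Ccl22 and Cd209a stood at 141 and 132 CPM, a log2 ratio of -0.10 (-0.35 to 0.16), and 1 of the 81 TNF- cells held 126 of their 175 C1q UMIs. The TNF+ value lay below the 148 CPM of TNF+ lung lymphocytes.

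The cluster led by Ccdc192, Cd300e and Hsd17b2 went from 1.18 CPM in 283 cells to 108 CPM in 2688 cells, and the cluster led by Kcnip4, Htr2c and Cidec from 2.65 to 106 CPM. Both TNF+ values lay below the 148 CPM (144 to 153) of TNF+ lung lymphocytes, and the source of C1q RNA in these clusters was not tested. In TNF- lung lymphocytes C1q stood at 3.94 CPM, and 2.04% of them held a C1q UMI, against 62.8% of TNF+ lung lymphocytes, with medians of 7928 and 8314.5 UMIs per cell. The TNF+ lymphocyte UMIs divided among C1qa, C1qb and C1qc as 42.7%, 37.1% and 20.1%. In macrophages and monocytes of that library the division was 43.9%, 33.5% and 22.7%. The source of the lymphocyte C1q RNA was not tested.

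Thinned to 1000 UMIs, 14.0% of TNF+ lung T cells held any C1q UMI and 0.326% (0.106 to 0.759) held all 3 C1q genes. Among macrophages and monocytes of that library the same shares were 22.7% and 7.61% (6.79 to 8.50). Before thinning, all 3 genes were found in 13.3% of TNF+ and 11.6% of TNF- lung macrophages and monocytes, and in 3.15% and 0.101% of T cells.

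**Figure D4:**
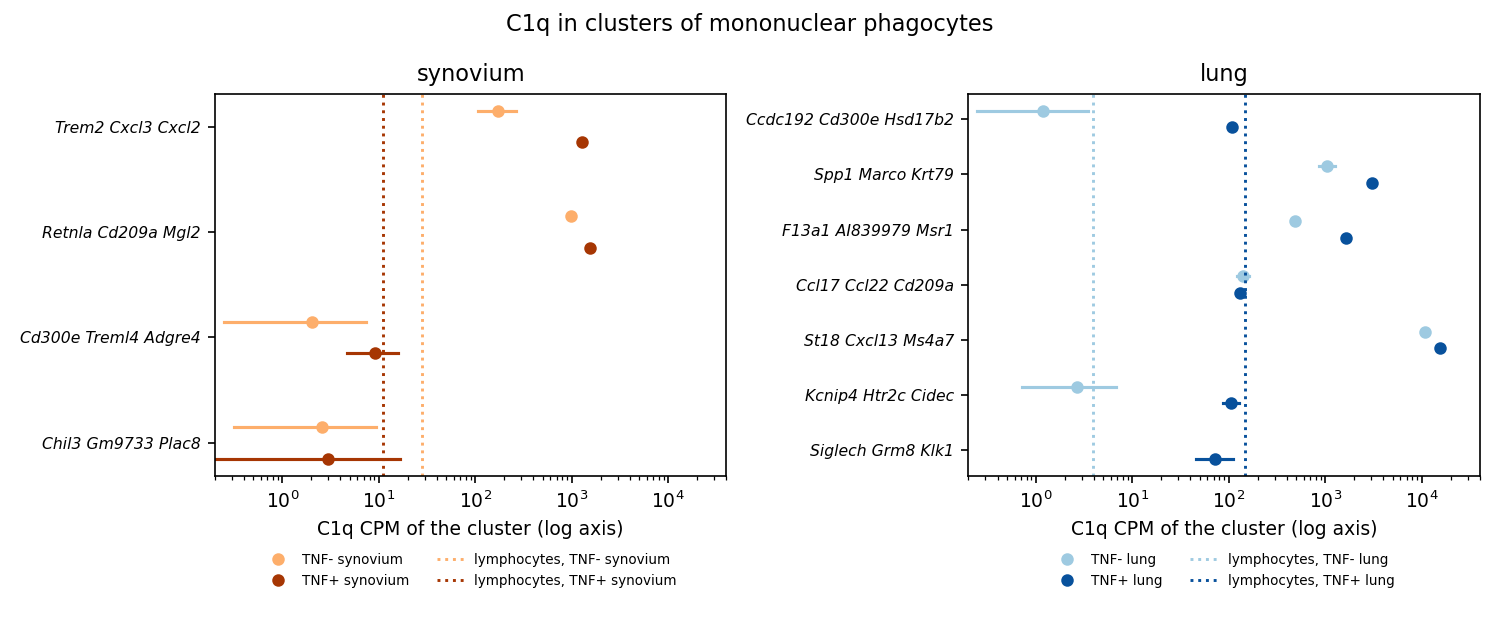
C1q level (sum of 3 genes, CPM, log axis) in each cluster of mononuclear phagocytes, named by its 3 leading genes, with 95% counting intervals; dotted lines give lymphocytes of the same library. The St18 Cxcl13 Ms4a7 cluster of lung is highest, at 10741 and 15497 CPM, and 4 lung clusters of the TNF+ library, at 72.7 to 132 CPM, lie left of its lymphocyte line at 148 CPM.

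In synovium C1q lay in different clusters in the 2 libraries. A cluster led by Retnla, Cd209a and Mgl2 held 95.5% of TNF- C1q UMIs in 446 cells. It was named dendritic by marker count alone, with 12 dendritic and 7 macrophage markers. With the TNF- library clustered by itself, 97.0% of its C1q UMIs lay in macrophages and monocytes, so the dendritic name rests on the clustering. A macrophage cluster led by Trem2, Cxcl3 and Cxcl2, with 10 TNF- and 872 TNF+ cells, held 87.5% of TNF+ C1q UMIs at 1282 CPM. A cluster found almost wholly in 1 library may be that library rather than a type. When macrophages and monocytes are taken without the dendritic clusters, the synovial C1q share is 0.305% (TNF-) and 87.6% (TNF+), and the log2 ratio is 6.43, values that rest on where the Retnla cluster is placed.

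Inside the Retnla cluster, C1q was concentrated further. A sub-cluster led by Ccl12, Ccl8, Lyve1, Cbr2, Stab1 and Folr2 held 6549 UMIs in 80 TNF- cells and 1996 UMIs in 25 TNF+ cells. The former were 79.9% of the C1q UMIs of kept TNF- cells. C1q UMIs were found in 69 of 80 and 24 of 25 of these cells, with medians of 83 and 64 per cell. Its level was 6981 CPM (6813 to 7152) for TNF- and 8747 CPM (8367 to 9139) for TNF+. A sub-cluster led by Xcr1, a marker of cross-presenting dendritic cells, held 2 C1q UMIs in 65 TNF- cells and none in 17 TNF+ cells, with an upper bound of 13.4 CPM.

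Outside phagocytes, single cells accounted for most C1q UMIs of the TNF- synovium. In B and plasma cells 1 of 62 cells held 107 of 110 UMIs, in mural cells 1 of 294 held 106 of 113, and in Schwann cells 1 of 66 held 52 of 53. Whether these barcodes hold more than 1 cell was not tested. Synovial T cells stood at 1.52 CPM (TNF-) and 12.5 CPM (TNF+) of C1q, against 157 CPM in T cells of the TNF+ lung.

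C1ra and C1s1, the proteases of the C1 complex, were mesenchymal in both tissues and lower in whole TNF+ libraries. Synovial C1ra was 163 (TNF-) and 75.3 CPM (TNF+), a log2 ratio of -1.11 (-1.18 to -1.05), and C1s1 was 297 and 107 CPM (-1.47, -1.52 to -1.42). In lung C1ra was 14.6 and 4.40 CPM (-1.73, -1.91 to -1.55), and C1s1 was 19.2 and 4.37 CPM (-2.13, -2.31 to -1.96). Mesenchyme made up 57.8% of TNF- and 18.4% of TNF+ synovial cells, and 8.12% and 2.31% of lung cells.

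Within mesenchyme both proteases were higher in TNF+, in the opposite direction to the whole libraries. Synovial C1ra went from 233 to 349 CPM (0.58, 0.52 to 0.65) and C1s1 from 421 to 481 CPM (0.19, 0.14 to 0.24). Lung C1ra went from 144 to 225 CPM (0.64, 0.36 to 0.92) and C1s1 from 240 to 396 CPM (0.72, 0.51 to 0.93). The lung values rest on 568 TNF- and 212 TNF+ cells, with medians of 6451 and 790 UMIs, and all of these differences are under 2-fold. The cells of lung mesenchyme also fell differently over its clusters, with 95 TNF- and 4 TNF+ cells in the one led by Hhip, Aspn and Kctd16 and 21 and 85 cells in the one led by Pcdh18, Col7a1 and Tafa1. In lung mural cells (106 TNF-, 94 TNF+) the values lay the other way, with C1ra at 66.8 and 33.1 CPM (-1.01, -2.52 to 0.20; 57 and 6 UMIs) and C1s1 at 227 and 177 CPM (-0.36, -0.95 to 0.18), and both intervals include 0. Barcodes above 5000 genes, left out here, held 66.7% of TNF- and 80.2% of TNF+ lung C1r and C1s UMIs.

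Fibroblasts and mural cells of the synovium differed. In fibroblasts C1ra went from 241 to 396 CPM (0.72, 0.65 to 0.78) and C1s1 from 426 to 526 CPM (0.31, 0.25 to 0.36). In mural cells C1s1 went from 312 to 178 CPM (-0.81, -1.07 to -0.55) and C1ra from 32.5 to 41.2 CPM (0.34, -0.29 to 0.96). The UMIs of C1s1 per UMI of C1ra were 1.77 and 1.33 in TNF- and TNF+ fibroblasts, and 9.59 and 4.31 in mural cells. The mural clusters differed in size between the libraries, with 236 and 38 cells in the Abcc9 Kcnj8 Higd1b cluster and 58 and 87 in the Myh11 Pln Acta2 cluster. C1s1 stood at 389 and 286 CPM (-0.44, -0.89 to -0.02) in the former and at 155 and 150 CPM in the latter.

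Lung endothelium showed the opposite balance of the proteases. Of its 141 TNF- UMIs of C1r and C1s, 90.1% were C1ra, at 9.43 CPM (7.86 to 11.2) for C1ra and 1.04 CPM (0.568 to 1.74) for C1s1. TNF- lung macrophages and monocytes had 0.119 C1s1 UMIs per C1ra UMI, and TNF+ ones 0.478. In synovial endothelium C1s1 was the more abundant, at 30.2 CPM against 11.7 CPM for C1ra in TNF-.

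C1s2, the second C1s gene of the mouse, was nearly absent, with 20 UMIs in the TNF- and 23 in the TNF+ synovium, none in the TNF- lung and 5 in the TNF+ lung. In synovial mesenchyme it went from 0.329 CPM (17 UMIs) to 2.84 CPM (19 UMIs), a log2 ratio of 3.11 (2.09 to 4.15). The last 500 bases of each gene hold 411 overlapping windows of 90 bases. Of these windows C1s1 shared 2.68% with C1s2, C1ra 11.2% with its copy C1rb, and C4b 20.2% with C4a. Because the windows overlap, these are not percents of bases. Reads from shared windows cannot be assigned to 1 copy.

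Among synovial fibroblast clusters the proteases were high throughout. In TNF- cells C1r and C1s together ranged from 355 CPM in the Chad Kera Fmod cluster to 752 CPM in the Gdf10 Meox1 Gng8 cluster. The latter went to 1037 CPM in 76 TNF+ cells (0.46, 0.35 to 0.58), and the Grm8 Cxcl14 Kcnb2 cluster stood at 716 and 749 CPM (0.06, -0.12 to 0.24). A cluster led by Ibsp, Mmp13 and Saa3, with 2 TNF- and 232 TNF+ cells, stood at 1033 CPM and held 64.6% of TNF+ synovial C1r and C1s UMIs.

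C2, which supplies the protease of the classical C3 convertase, was lower than C1r and C1s in mesenchyme and differed by tissue. Over whole synovial libraries it was 15.4 CPM (TNF-) and 14.98 CPM (TNF+), a log2 ratio of -0.04 (-0.20 to 0.11). In synovial mesenchyme it stood at 19.2 CPM (991 UMIs) and 49.4 CPM (330 UMIs), a log2 ratio of 1.36 (1.18 to 1.55), the largest mesenchymal difference among members other than C1s2. Of the 330 TNF+ UMIs, 227 lay in the Ibsp Mmp13 Saa3 fibroblasts, a cluster of 2 TNF- and 232 TNF+ cells. In lung mesenchyme it stood at 39.4 and 50.6 CPM (0.36, -0.26 to 0.94), an interval that includes 0.

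Synovial clusters differed in C2. The Gdf10 Meox1 Gng8 fibroblasts went from 35.4 to 98.4 CPM (1.47, 1.07 to 1.86), and the Ibsp Mmp13 Saa3 fibroblasts stood at 60.0 CPM (TNF+). The Chad Kera Fmod cluster stood at 35.3 and 30.7 CPM (-0.20, -0.85 to 0.40). The Grm8 Cxcl14 Kcnb2 fibroblasts stood at 14.1 and 11.6 CPM (-0.28, -2.16 to 1.10) on 286 and 4 UMIs, and the Mrgprg Sv2c Smpd3 fibroblasts at 7.32 and 6.13 CPM (-0.26, -5.58 to 2.26) on 89 and 1 UMIs. The highest level among synovial clusters of at least 20 cells lay in an unnamed cluster led by Tenm2, Sfrp5 and Lypd2, with 173 CPM (145 to 204) over 101 TNF- cells and 420 CPM (335 to 520) in 27 TNF+ cells.

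Lung lymphocytes held 30.4% of TNF- C2 UMIs, at 4.04 CPM (3.22 to 5.00), and 28.0% of TNF+ C2 UMIs, at 1.77 CPM (1.31 to 2.34). Lung phagocytes stood at 1.81 and 1.70 CPM, with 5.43% of TNF- and 44.6% of TNF+ C2 UMIs. These TNF+ levels lay below those of TNF+ lung endothelium (2.67 CPM, 4 UMIs) and epithelium (2.04 CPM, 2 UMIs). Over all kept lung cells C2 went from 5.13 to 2.07 CPM (-1.31, -1.59 to -1.03). That value rests on the limit of 5000 genes. Barcodes above it held 66.9% of TNF- and 80.0% of TNF+ lung C2 UMIs, at 13.5 and 9.91 CPM.

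C4b encodes complement C4, whose cleavage by C1s starts the convertase, and it was a fibroblast gene with strong differences between fibroblast clusters. In whole libraries it went from 49.1 to 19.7 CPM in synovium (-1.32, -1.44 to -1.20) and from 18.0 to 2.43 CPM in lung (-2.89, -3.11 to -2.67). Within mesenchyme it stood at 68.7 and 82.1 CPM in synovium (0.26, 0.12 to 0.39) and at 187 and 265 CPM in lung (0.50, 0.24 to 0.75). With each cell weighted equally the lung mesenchymal ratio was -0.14. Barcodes above 5000 genes, left out of these values, held 18.6% (TNF-) and 44.1% (TNF+) of synovial C4b UMIs. Of lung C4b UMIs they held 69.4% and 76.0%. In lung the Cdh11 Abca8a Pdgfra fibroblasts held 57.0% of TNF- C4b and stood at 299 and 465 CPM (0.64, 0.32 to 0.94) over 147 and 22 cells. Of their 106 TNF+ UMIs, 67.0% lay in 3 cells.

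The mesenchymal average covered opposite patterns in synovium. The Gdf10 Meox1 Gng8 fibroblasts held 57.5% of TNF- C4b at 165 CPM (835 cells) and stood at 75.0 CPM in TNF+ (-1.14, -1.58 to -0.73). Of their 48 TNF+ UMIs, 66.7% lay in 3 of 76 cells. The Chad Kera Fmod cluster stood at 98.5 and 33.0 CPM (-1.58, -2.18 to -1.04), and 55.2% of its 29 TNF+ UMIs lay in 3 of 78 cells. The Grm8 Cxcl14 Kcnb2 cluster held 381 UMIs at 18.7 CPM in TNF- and none in 50 TNF+ cells. That level was at least 2.15-fold lower when the floor of 3 UMIs is used. In TNF-, 8 of its 1350 cells held 50% of these UMIs.

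The Ibsp Mmp13 Saa3 cluster stood at 122 CPM and held 70.7% of C4b UMIs of the TNF+ synovium. The higher TNF+ mesenchymal level was thus carried by a cluster of 232 TNF+ and 2 TNF- cells. The 3 fibroblast clusters with at least 50 cells in both libraries were lower in TNF+, on UMIs that lay in few cells. The Mrgprg Sv2c Smpd3 fibroblasts held 602 C4b UMIs in 739 TNF- cells and 9 in 20 TNF+ cells, a level within 2-fold. C4b was also not carried by all cells: 509 of 3582 TNF- (14.2%) and 129 of 581 TNF+ (22.2%) synovial mesenchymal cells held a UMI, and 1.48% of the TNF- cells held 50% of the UMIs.

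**Figure D5:**
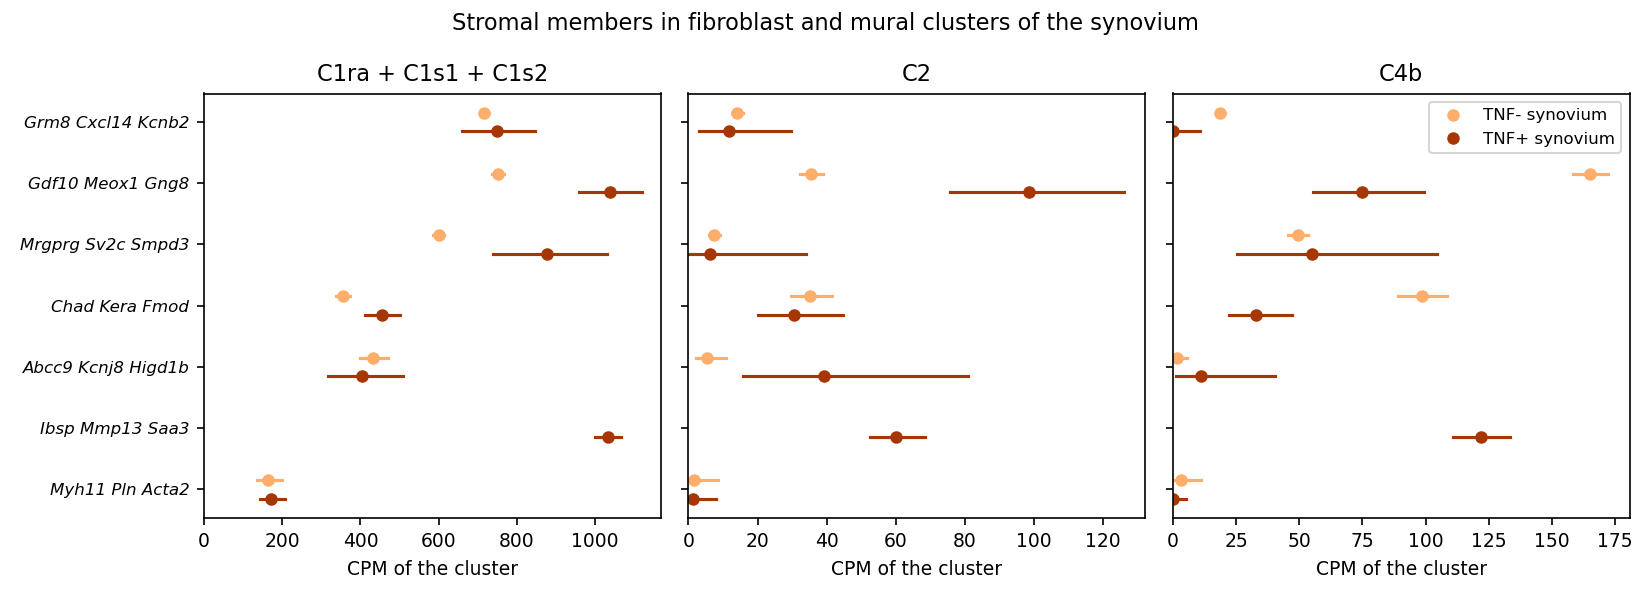
Level in CPM of C1r and C1s together, C2 and C4b in fibroblast and mural clusters of the synovium with at least 20 cells in the library, with 95% counting intervals, TNF- in light and TNF+ in dark. C4b is lower in TNF+ in the Grm8, Gdf10 and Chad clusters and stands at 122 CPM in the Ibsp cluster, which has a TNF+ value only; C1r and C1s are near or above their TNF- level in every cluster drawn.

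Some C4b lay outside mesenchyme. Schwann cells of the TNF- synovium held 172 CPM (135 to 216; 73 UMIs) in 66 cells, and those of the TNF+ synovium 25.9 CPM (16.8 to 38.2) in 233 cells. Epithelial cells of the TNF+ synovium held 27.1 CPM (20.5 to 35.2). TNF- lung macrophages and monocytes held 158 UMIs, of which 131 lay in 3 cells of the F13a1 AI839979 Msr1 cluster, and TNF+ ones held 29 UMIs; the phagocyte log2 ratio in lung was -4.92.

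C4a, the sex-limited protein gene beside C4b, was at the floor of detection. It had 12 (TNF-) and 14 (TNF+) UMIs in lung and 36 (TNF-) and 12 (TNF+) in synovium. In the synovium its log2 ratio was -0.38 (-1.46 to 0.60), which includes 0.

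The genes whose level over cell classes was most like C1q were Ms4a7 (Pearson r 0.90), Trem2 (0.84), Aif1 (0.79), Mrc1 (0.77) and Cybb (0.77). Those most like C1r and C1s were Serping1 (0.94), Cygb (0.93), Col6a2 (0.93), Aebp1 (0.93) and Prrx1 (0.92). These are correlations of log2(CPM + 1) over 41 points, each a class of at least 50 cells in a library, among 10066 genes. The points share libraries, depth and free RNA, Ms4a7, Trem2 and Mrc1 were themselves markers used in naming, and no test is attached. Summed C1q had r of -0.15 with C1ra and -0.27 with C1s1, whereas C1r and C1s had 0.67 with C2 and 0.69 with C4b.

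Other genes of the pathway were read from a list of 18, all measured. In synovial mesenchyme 13 reached 20 UMIs, of which C3, the target of the convertase, and Masp1, a protease of the lectin pathway, were 2-fold higher in TNF+, beside 9.35% of all genes, and Cd46, Cd55 and Masp2 were lower, beside 21.6%. In lung mesenchyme C3, Hc, Cd55 and Cd93 of 12 were higher, beside 9.19% of all genes, and Masp1 was lower, on 26 and 1 UMIs, beside 9%. Mesenchymal Hc stood at 3.20 (TNF-) and 17.4 CPM (TNF+), against 1033 CPM in TNF+ lung epithelium. Mesenchymal Cd93 stood at 7.63 and 20.9 CPM, against 793 CPM in TNF+ lung endothelium. The source of their RNA in mesenchyme was not tested. C3 stood at 1222 and 3765 CPM in synovial mesenchyme and at 537 and 2743 CPM in lung mesenchyme.

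Serping1, the inhibitor of C1r and C1s, was mesenchymal like its targets, at 1006 and 1219 CPM in synovial mesenchyme (0.28, 0.24 to 0.31) and 1059 and 830 CPM in lung mesenchyme (-0.35, -0.49 to -0.21). In synovial phagocytes it stood at 18.6 and 2.55 CPM, in the same direction as C1s1 there (7.13 and 2.73 CPM). In phagocytes C3 was higher in TNF+ in both tissues, at 54.5 and 249 CPM in synovium and 101 and 495 CPM in lung. The synovial value joins classes of unlike level whose mix differed between the libraries. C3 stood at 196 and 263 CPM in macrophages and monocytes (147 TNF- and 1085 TNF+ cells), which is under 2-fold. In dendritic cells (446 and 108 cells) it stood at 20.9 and 108 CPM. Of the 11 listed genes tested in synovial phagocytes 2 were higher, beside 9.63% of all genes, and 2 lower, beside 19.5%. Of the 12 in lung phagocytes 2 were higher, beside 4.66%, and 1 was lower, beside 14.6%.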

How the data were processed

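Lung and synovial cells of TNF+ and TNF- mice were captured by 10x 3′ chemistry. Raw, unnormalized UMI counts were deposited by the authors for each library, made with Cell Ranger 7.0.1 on mm10 per the submitters' processing notes. Cells with 200 to 5000 genes and at most 20% mitochondrial UMIs were kept. Doublets were removed only by the upper limit on genes, and Scrublet removal was an alternative. The libraries of a tissue were clustered together without complement genes in scanpy 1.11.5 (2000 variable genes, 30 components, 20 neighbours, Leiden resolution 0.8), giving 28 synovial and 35 lung clusters. Each was named for the cell type with most markers, at least 5. UMIs were summed per class. Intervals were exact Poisson, Clopper-Pearson or conditional binomial (scipy 1.17.1). Only the interval of a ratio was checked, on simulated Poisson counts, a model in which UMIs do not gather in few cells. The 2-fold size was read where both sides together held 20 UMIs. A level of 0 was bounded by 3 UMIs. Deep libraries give narrower intervals, but 1 library per group leaves the spread between mice unknown. The 9 members were named in full, 18 other pathway genes by count and selected values, and 5 genes most like each group. Members and lists were chosen with earlier results of these data known. Joining dendritic cells with macrophages was chosen after seeing the data.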

Additional observations from a re-analysis of the deposited data

Results flagged for a closer look

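C1s1 differed in opposite directions in phagocytes of the 2 tissues, with a log2 ratio of TNF+ over TNF- of -1.38 in synovium (70 and 45 UMIs) and 1.29 in lung (6 and 81 UMIs). In the synovium, C1s1 was 17.6 CPM in TNF- T cells, found in 26 of 274 cells, above the 7.13 CPM of TNF- phagocytes. TNF+ T cells held no UMI, and the part of this in the value was not tested. The difference between the tissues was not tested.

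In lymphocytes, C1qb had a log2 ratio of -1.44 in synovium and 5.30 in lung, and the 3 C1q genes together had -1.36 in synovium and 5.23 in lung. The difference between the tissues was not tested. In the TNF- synovium 107 of the 115 lymphocyte UMIs came from 1 cell.

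Barcodes above the limit of 5000 genes, which entered only the values without a filter on cells, also held C1q. Its level in them was 84.7 CPM in the TNF- synovium, 182 CPM in the TNF+ synovium, 110 CPM in the TNF- lung and 2103 CPM in the TNF+ lung. The last were 1909 barcodes with 149778 C1q UMIs and a median of 34835 UMIs each, and whether they hold more than 1 cell was not tested.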

How the results depend on the processing

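With 1 library per group and pooled mice, no value has a replicate check, and the intervals cover counting error only. Under the planned settings 19 summary values stayed within the counting interval of the main value, 36 moved outside it and 1 changed sign. Those that moved or changed sign are given here. The share of C1q UMIs in macrophages and monocytes was 96.3% (TNF-) and 92.1% (TNF+) for lung, and 0.305% (TNF-) and 87.6% (TNF+) for synovium. Without a filter on cells it was 85.0%, 93.3% and 81.7% in both lungs and the TNF+ synovium. A stricter filter gave 93.3% in the TNF+ lung and 86.2% in the TNF+ synovium. Removing the highest Scrublet scores gave 97.0%, 92.8% and 88.4% in both lungs and the TNF+ synovium. Clustering each library by itself gave 97.6%, 85.6%, 97.0% and 96.3%. Adding dendritic cells gave 98.1%, 92.8%, 95.8% and 99.5%.

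The mesenchymal share of C1r and C1s was 85.9%, 47.9%, 96.5% and 92.0% in the same order. It was 81.5%, 38.7%, 95.1% and 92.9% without a filter, and 69.4%, 37.3%, 97.6% and 92.7% after Scrublet removal. The stricter filter gave 97.2% and 92.9% in the synovial libraries, and clustering by itself 78.2% in the TNF- synovium.

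The log2 ratio of C1q in macrophages and monocytes was 6.43 in synovium. It turned to -0.63 with each library clustered by itself (0.64 for macrophages, monocytes and dendritic cells together), and was 4.80 with cells weighted equally, 0.56 with dendritic cells added and 0.60 with the lymphocyte level also subtracted. In lung it was 0.29, against 1.82 without a filter, 0.83 after Scrublet removal, 0.50 with median-of-ratios scaling, 0.44 with cells weighted equally and 0.41 with dendritic cells added. The log2 ratio of C1r and C1s in mesenchyme was 0.35 in synovium, against 0.24, 0.45, 0.52 and 0.11 under those 4 settings and 0.47 in fibroblasts alone. In lung it was 0.70, against 0.96 without a filter, 0.89 under the stricter filter, 1.04 after Scrublet removal, 0.22 with cells weighted equally and 0.99 in fibroblasts alone. Settings with dendritic cells added, the lymphocyte level subtracted or fibroblasts alone were chosen after seeing the data. The cause of these shifts was not tested.

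The percent of all genes past 2-fold was within 1.5 times its value in 20 of 24 comparisons with other UMI minimums. In lung phagocytes the lower share went from 14.6% to 9.30% at 100 UMIs. In mesenchyme the higher share went from 9.35% to 16.4% (synovium) and from 9.19% to 17.8% (lung) at 5 UMIs, and to 4.66% (lung) at 100 UMIs. With cells weighted equally, lung mesenchymal C2 and C4b changed sign, to -0.03 and -0.14. No paired analysis was possible because each group has 1 library and no result comes from a test.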
